A study of Homo sapiens with 2 samples.

Results

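The 42 genes described here make, move and regulate cholesterol and fatty acids. They were chosen by symbol, from enzymes of sterol synthesis, the SREBP regulators, carriers and stores of sterol, and enzymes that build, desaturate, elongate, activate or oxidise fatty acids. All 42 were found among the 21382 genes of the deposited table. Total RNA of 2 established prostate cancer cell lines was sequenced, 1 library from each line, so no value has a replicate error and no test between the lines was possible. MDA PCa 2b, a line from a bone metastasis, was untreated and grown in a modified Ham's F-12 medium with 20% fetal bovine serum, 5 ug/ml insulin, 10 ng/ml epidermal growth factor, 100 pg/ml hydrocortisone, cholera toxin, phosphoethanolamine, selenite and antibiotics. RC77 T/E, likewise untreated, was grown in Keratinocyte-SFM, a serum-free medium, to which bovine pituitary extract and epidermal growth factor were added. Serum carries lipoproteins, which bring cholesterol and fatty acids to cells. Cell line, culture medium and library therefore cannot be told apart in any difference given here. In such bulk RNA, fewer expressing cells and less RNA per cell also cannot be told apart.

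Cholesterol is made from acetyl-CoA through mevalonate, farnesyl diphosphate, squalene and lanosterol. The transcription factors SREBP-1 and SREBP-2 switch on this route and that of fatty acids. They are held in the endoplasmic reticulum by SCAP and the INSIG proteins while sterol is plentiful, and are released to the nucleus when it is scarce. SREBP-2 mainly serves the sterol genes and SREBP-1 mainly the fatty acid genes, and in prostate cancer cells androgens are known to raise both sets of lipid enzymes.

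Expression is given as TPM, the share of transcripts that belong to a gene after its reads are divided by its length. The number of reads behind a value is unknown. Many deposited values had lost their decimal mark. The mark was fixed for 14 of the 42 genes. For the other 28 more than 1 position matched, by a factor of 10 or 100, and then all matching TPM values are given, in the order in which they pair between the lines. A shift of the mark moves both lines together, so the ratio between the lines is known for all 42. Of 4 epithelial markers, 4 were at 1 TPM or more in both lines, with a sum of 378 to 894 TPM (MDA PCa 2b) versus 383 to 907 TPM (RC77 T/E). Of 6 prostate luminal markers, 6 reached 1 TPM in MDA PCa 2b but 1 in RC77 T/E cells, where 3 are listed at 0, and their sum was 6082 to 6943 TPM (MDA PCa 2b) versus 1.41 TPM (RC77 T/E). KLK3, which encodes prostate-specific antigen, is among the latter and stood at 5323 TPM in MDA PCa 2b. Of 3 basal markers, 3 reached 1 TPM in RC77 T/E cells but 1 in MDA PCa 2b, where 1 is listed at 0, and their sum was 37.4 TPM (MDA PCa 2b) versus 7287 to 7333 TPM (RC77 T/E). The 4 stromal markers summed to 1.68 TPM (MDA PCa 2b) versus 9.22 TPM (RC77 T/E), the 4 leukocyte markers to 0.264 and 5.08 TPM, and the 4 fat and liver cell markers to 2.98 and 0.334 TPM. Most of each higher sum was 1 gene: COL1A1 at 8.24 TPM and CD14 at 4.92 TPM in RC77 T/E, and PLIN1 at 2.75 TPM in MDA PCa 2b. All other genes of these lists were under 1 TPM in both lines, and DCN, PTPRC and CD79A were higher in MDA PCa 2b. The part that these marker levels have in the lipid gene values was not tested.

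All 42 lipid genes were at 1 TPM or more in RC77 T/E cells, as were 39 of them in MDA PCa 2b. Of all 21382 genes, 11286 reached that level in RC77 T/E cells and 10607 in MDA PCa 2b, so more genes reached it in RC77 T/E generally. The sterol genes were mostly higher in RC77 T/E cells, whereas the fatty acid genes were split. A gene is called RC77 T/E-high or MDA PCa 2b-high where its TPM in that line was at least 2-fold that in the other. Among all 12126 genes at 1 TPM or more in at least 1 line, 23.3% were RC77 T/E-high, 24.4% were MDA PCa 2b-high and 47.8% were either. Of the 42 lipid genes, 15 were RC77 T/E-high, 11 were MDA PCa 2b-high and 16 were within 2-fold. Of the 22 genes of sterol synthesis, transport and storage, 11 were RC77 T/E-high and 4 were MDA PCa 2b-high. Of the 15 fatty acid genes, 3 were RC77 T/E-high and 6 were MDA PCa 2b-high. The median log2 ratio of RC77 T/E over MDA PCa 2b was 1.04 for the sterol genes and -0.18 for the fatty acid genes, beside -0.16 for all genes compared. With ratios centred on that overall median, 13 of the 22 sterol genes were RC77 T/E-high and 3 were MDA PCa 2b-high. The fatty acid counts stayed at 3 and 6. Of all 12126 genes, 3107 were then RC77 T/E-high and 2567 MDA PCa 2b-high, so their calls moved toward RC77 T/E too.

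**Figure D1:**
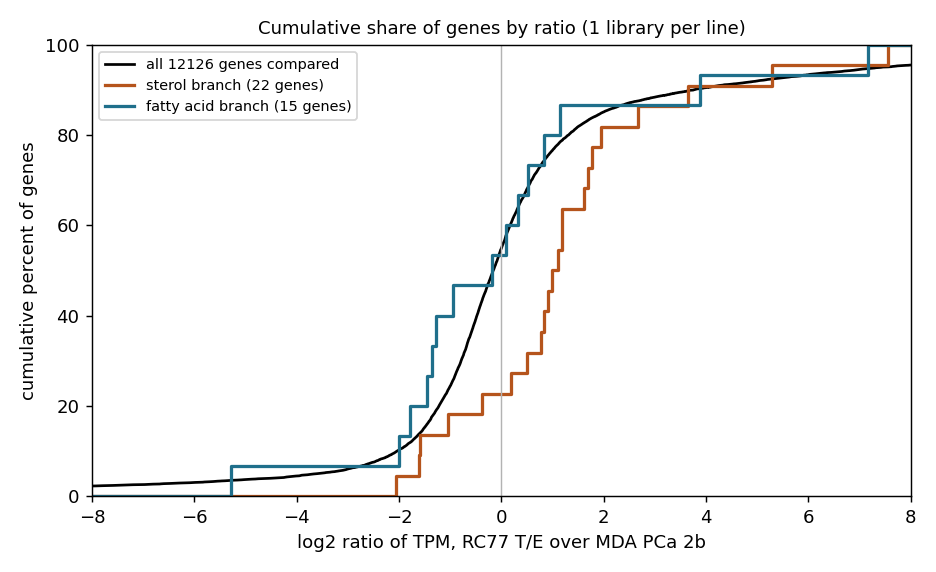
Cumulative percent of genes (vertical axis) by log2 ratio of TPM in RC77 T/E over MDA PCa 2b (horizontal axis), for all 12126 genes compared, the 22 sterol genes and the 15 fatty acid genes. Genes beyond the axis include those listed at 0 in one line. The sterol curve lies to the right of the curve of all genes around its median of 1.04, while the fatty acid curve crosses it near its median of -0.18.

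The first steps of the sterol route build farnesyl diphosphate, and 5 of its 7 genes were RC77 T/E-high, beside 23.3% of all genes compared. HMGCS1, which joins acetyl-CoA units into HMG-CoA, stood at 15.1 TPM (MDA PCa 2b) versus 189.8 TPM (RC77 T/E). This is 12.6-fold higher in RC77 T/E, and 10.2% of all genes compared had a ratio at least as high. HMGCS1 (ENSG00000112972) lies on chromosome 5 of GRCh38 from 43287470 to 43313512. ACAT2, the cytosolic thiolase that opens the route, was at 34.2 TPM (MDA PCa 2b) versus 110.9 TPM (RC77 T/E), 3.24-fold higher in the latter. FDPS makes farnesyl diphosphate and lies on chromosome 1 from 155308748 to 155320666. It was at 82.7 TPM (MDA PCa 2b) versus 318.3 TPM (RC77 T/E), 3.85-fold higher in RC77 T/E. These are the 3 genes of this stretch with a fixed mark, which sets their TPM but has no part in the ratio.
IDI1, the isomerase that readies isoprene units, was at 2.63, 26.3 or 263 TPM (MDA PCa 2b) versus 8.003, 80.0 or 800.3 TPM (RC77 T/E), 3.04-fold higher there. MVD, the decarboxylase before it, was at 2.97, 29.7 or 297 TPM against 6.71, 67.1 or 671 TPM and 2.26-fold higher in RC77 T/E, which a pseudocount of 1 TPM at the lowest mark brought under 2-fold, at a log2 ratio of 0.96. The pair of kinases between HMG-CoA and MVD did not share this direction. PMVK, phosphomevalonate kinase, was at 5.31 or 53.1 TPM (MDA PCa 2b) versus 1.74 or 17.4 TPM (RC77 T/E), and thus 3.06-fold higher in MDA PCa 2b. MVK, mevalonate kinase, was at 20.9 or 209 TPM against 16.1 or 161 TPM, which is 1.298-fold higher in MDA PCa 2b and within the 2-fold limit. Within this stretch of the pathway, ratios therefore ran from 12.6-fold higher (HMGCS1) to 3.06-fold lower (PMVK) in RC77 T/E cells.

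From squalene onward, 9 of 10 genes had a higher value in RC77 T/E cells, 3 of them by at least 2-fold. Of all 12126 genes compared, 5464 had a higher value in RC77 T/E cells and 23.3% were RC77 T/E-high, beside 30% of these 10. SQLE, squalene epoxidase, a rate-limiting enzyme of the route, was at 3.17 or 31.7 TPM (MDA PCa 2b) versus 20.1 or 201 TPM (RC77 T/E). Its 6.33-fold ratio was the largest of this stretch, and the gene lies on chromosome 8 from 124998497 to 125022283. FDFT1, squalene synthase, was at 15.4 or 154 TPM against 32.9 or 329 TPM and 2.14-fold higher in RC77 T/E. DHCR7, which catalyses the last reduction to cholesterol, was at 7.67 or 76.7 TPM against 17.3 or 173 TPM and 2.26-fold higher in RC77 T/E.
Another 6 genes were higher in RC77 T/E by less than 2-fold, from 1.15-fold for NSDHL, a C4 decarboxylase, to 1.98-fold for EBP. The isomerase EBP lay just under the limit, at 10.5 or 105 TPM (MDA PCa 2b) versus 20.7 or 207 TPM (RC77 T/E). CYP51A1, lanosterol demethylase, was at 5.14, 51.4 or 514 TPM against 9.62, 96.2 or 962 TPM, a ratio of 1.87-fold. LSS, lanosterol synthase, was at 3.78 or 37.8 TPM against 6.75 or 67.5 TPM, a ratio of 1.78-fold. Both enzymes thus lay close under the limit and on the same side as SQLE. Centred on the overall median, CYP51A1 and EBP were RC77 T/E-high. The ketoreductase HSD17B7 was 1.70-fold higher in RC77 T/E, and the desaturase SC5D was 1.41-fold higher. HSD17B7 has a near copy, the pseudogene HSD17B7P2, listed at 2.93 TPM (MDA PCa 2b) versus 4.22 TPM (RC77 T/E), and how reads were shared between them is not stated. TM7SF2, a sterol C14 reductase, was the exception: it was at 17.3 or 173 TPM (MDA PCa 2b) versus 4.11 or 41.1 TPM (RC77 T/E), 4.20-fold higher in MDA PCa 2b. LBR, the lamin B receptor, which carries the same reductase activity, was at 21.5 TPM (MDA PCa 2b) versus 29.9 TPM (RC77 T/E). LBR is not one of the 42 genes and is named after its values were seen.

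**Figure D2:**
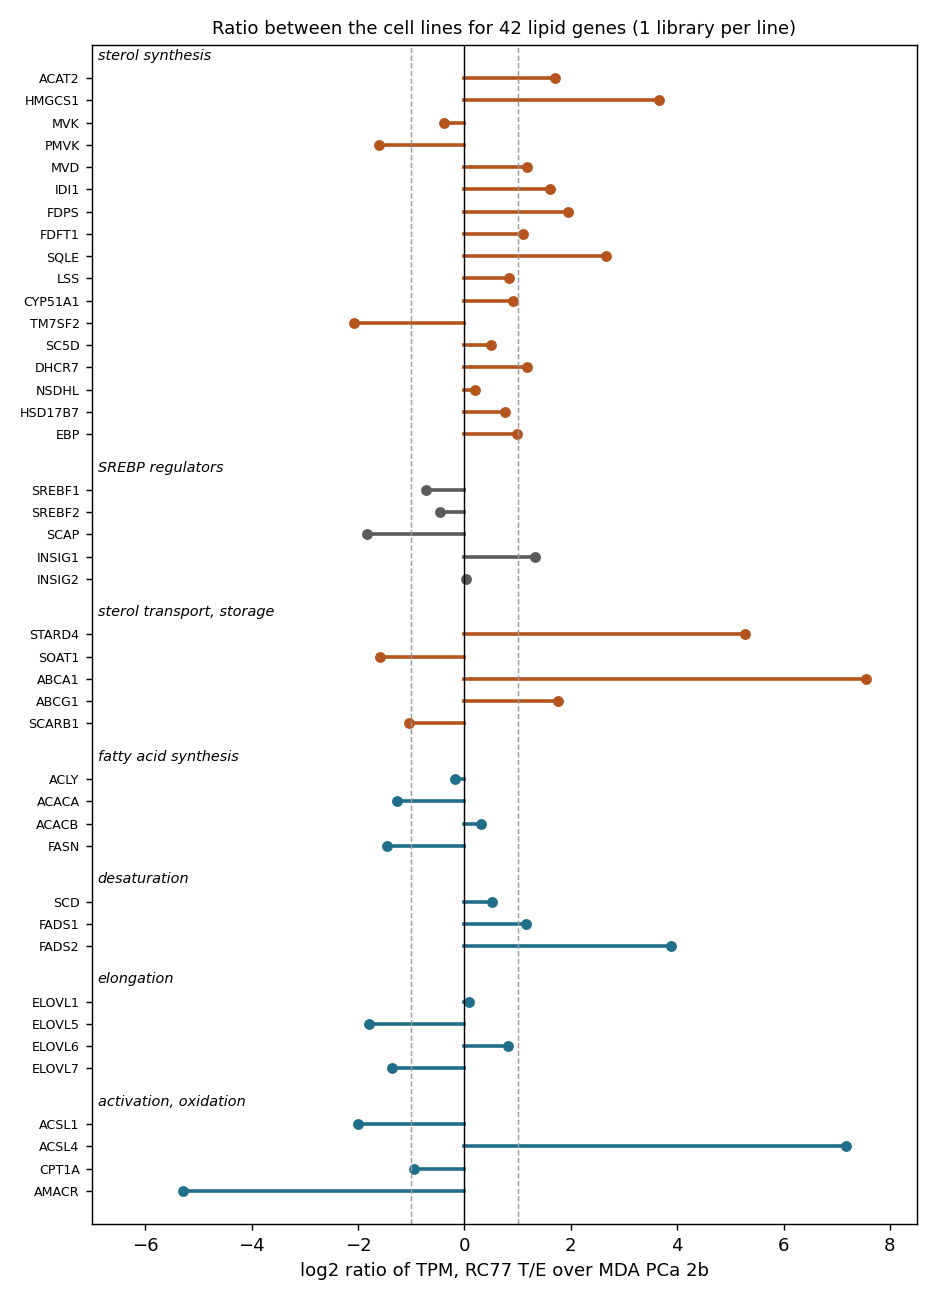
Log2 ratio of TPM in RC77 T/E over MDA PCa 2b (horizontal axis) for the 42 genes, grouped by role, each point from 1 library per line. Dashed lines mark 2-fold in either direction. Of the 17 sterol synthesis genes, 14 lie to the right of 0, beside 5464 of all 12126 genes compared, which are not drawn. The farthest points of the 42 are ABCA1 and ACSL4 on the right and AMACR on the left.

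SREBPs activate promoters together with NF-Y, which binds CCAAT boxes, and Sp1, which binds GC boxes. The 250 bases before each RefSeq start of a gene were searched on both strands for CCAAT, for GGGCGG and for a strict sterol regulatory element, TCACNCCAC. A gene was counted if any of its starts had a match, and a match of one may share bases with a match of another. RefSeq windows on GRCh38.p14 were matched by symbol for 36 of the 42 genes. No window was matched for ACAT2, FDFT1, SQLE, ABCG1, SCARB1 and FASN. CCAAT was present in 12 of 14 sterol synthesis genes (85.7%), in 8 of 14 fatty acid genes (57.1%) and in 37.0% of all 27305 genes with a window. Among the RC77 T/E-high genes, 7 of 11 held it, as did 6 of 9 MDA PCa 2b-high genes. The box was thus found at 63.6% and 66.7% on the opposite sides of the comparison. GGGCGG was present in 32 of the 36 genes (88.9%) and in 46.2% of all genes. The 27305 genes were not limited to expressed genes, as the lipid genes in effect are, so these shares are not matched for expression. It was found in 11 of 11 RC77 T/E-high and in 7 of 9 MDA PCa 2b-high genes. The strict sterol element was found in SREBF2 and ACSL1 alone among the 36 genes, and in 1.09% of all genes. A match is a run of letters and no evidence of binding.

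The windows below show a CCAAT box, which reads ATTGG on the other strand, in the 7 RC77 T/E-high genes that held one, and the sterol element of SREBF2. Where a gene had several CCAAT matches, a single match was picked. It had to be clear of exons, with the fullest window, and then nearest a set distance before the start. They are shown to let these promoters be compared by eye. Capitals mark the boxes, and the further capitals in HMGCS1 are a GGGCGG match. Each is written 5′ to 3′ on the strand of the gene, and lies before a RefSeq start. That of DHCR7 lies inside the gene as the deposited table bounds it (chromosome 11 from 71428193 to 71452868), before an internal start, and the others lie outside the bounds of their genes. In GENCODE the first 7 overlap no exon, and that of SREBF2 overlaps an exon of the antisense gene SREBF2-AS1.
HMGCS1 (chr5:43313535-43313595, minus strand): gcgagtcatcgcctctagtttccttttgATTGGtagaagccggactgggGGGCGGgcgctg
IDI1 (chr10:1049204-1049264, minus strand): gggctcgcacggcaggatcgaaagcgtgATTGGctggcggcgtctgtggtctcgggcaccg
FDPS (chr1:155308662-155308722, plus strand): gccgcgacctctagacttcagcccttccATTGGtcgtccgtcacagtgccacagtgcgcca
MVD (chr16:88663179-88663239, minus strand): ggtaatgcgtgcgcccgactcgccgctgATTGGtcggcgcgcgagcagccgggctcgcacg
DHCR7 (chr11:71448455-71448515, minus strand): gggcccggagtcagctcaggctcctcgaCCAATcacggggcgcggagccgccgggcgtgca
INSIG1 (chr7:155297680-155297740, plus strand): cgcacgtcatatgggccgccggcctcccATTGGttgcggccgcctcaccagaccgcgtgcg
STARD4 (chr5:111512633-111512693, minus strand): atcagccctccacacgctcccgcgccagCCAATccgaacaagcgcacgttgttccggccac
SREBF2 (chr22:41832962-41832990, plus strand): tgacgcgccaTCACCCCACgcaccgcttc
In 5 of these 7 genes the box shown lies in the ATTGG orientation. The first base of the box shown lies between 176 bases (FDPS) and 94 bases (DHCR7) before that RefSeq start. Both depend on how the boxes were picked and do not describe all matches of these genes.

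Of the 5 genes of the SREBP system itself, 1 was RC77 T/E-high, 1 was MDA PCa 2b-high and 3 were within 2-fold. These shares of 20% and 20% were near the 23.3% and 24.4% of all genes compared. SREBF2, which encodes SREBP-2, was at 11.2 or 112 TPM (MDA PCa 2b) versus 8.17 or 81.7 TPM (RC77 T/E). SREBF1, which encodes SREBP-1, was at 9.58, 95.8 or 958 TPM against 5.78, 57.8 or 578 TPM. The higher value of both was in MDA PCa 2b, by 1.37-fold and 1.66-fold, within the 2-fold limit. SCAP, the escort that carries SREBPs to the Golgi, was at 7.40 or 74.0 TPM (MDA PCa 2b) versus 2.08 or 20.8 TPM (RC77 T/E), 3.56-fold higher in MDA PCa 2b.
The INSIG genes, which hold SCAP back, differed from each other. INSIG1, itself a known SREBP target, was at 2.05, 20.5 or 205 TPM (MDA PCa 2b) versus 5.16, 51.6 or 516 TPM (RC77 T/E), and thus 2.52-fold higher in RC77 T/E. INSIG2 had 13.3 TPM (MDA PCa 2b) versus 13.6 TPM (RC77 T/E), a ratio of 1.03-fold with both marks fixed. Transcript levels of these genes do not measure how much SREBP is in the nucleus.

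The 5 genes of sterol transport and storage all differed by 2-fold or more, beside 47.8% of all genes compared. Of the 5, 3 were RC77 T/E-high and 2 MDA PCa 2b-high, beside 23.3% and 24.4% of all genes compared. ABCA1, the transporter that loads cholesterol onto apolipoproteins, was at 0.0200 TPM (MDA PCa 2b) versus 3.76 TPM (RC77 T/E). STARD4, a carrier of cholesterol in the cytosol, was at 0.708 TPM (MDA PCa 2b) versus 27.6 TPM (RC77 T/E). Both passed 1 TPM in RC77 T/E cells alone. With values this low and no read counts, their ratios of 189-fold and 38.9-fold have no known precision, and a pseudocount of 1 TPM brought the log2 ratio of ABCA1 from 7.56 to 2.22 and that of STARD4 from 5.28 to 4.06. ABCG1, the second efflux transporter, was at 2.46 TPM (MDA PCa 2b) versus 8.34 TPM (RC77 T/E), 3.398-fold higher in the latter.
SOAT1, which esterifies cholesterol for storage in droplets, was 2.997-fold higher in MDA PCa 2b, at 3.28, 32.8 or 328 TPM against 1.095, 10.95 or 109.5 TPM. SCARB1, the receptor for high-density lipoprotein, was 2.07-fold higher in MDA PCa 2b, at 7.50, 75.0 or 750 TPM against 3.63, 36.3 or 363 TPM. The efflux transporters and the cytosolic carrier were thus higher in RC77 T/E cells, and the storage enzyme and the lipoprotein receptor in MDA PCa 2b. Centred on the overall median, SCARB1 was no longer 2-fold apart.

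**Figure D3:**
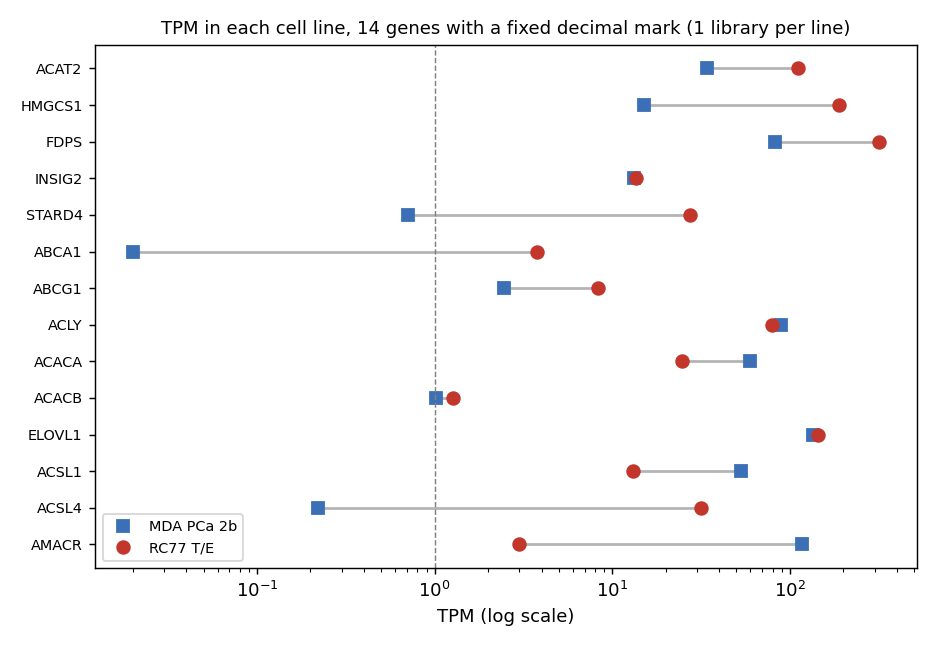
TPM on a log scale (horizontal axis) in MDA PCa 2b (squares) and RC77 T/E (circles) for the 14 genes with a fixed decimal mark, 1 library per line. The dashed line is 1 TPM. ABCA1, STARD4 and ACSL4 lie above it in RC77 T/E cells alone, and the points of INSIG2 and ELOVL1 nearly coincide.

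The genes of fatty acid synthesis did not share the direction of the sterol genes. FASN, which encodes fatty acid synthase and lies on chromosome 17 from 82078338 to 82098294, was at 3.65, 36.5 or 365 TPM (MDA PCa 2b) versus 1.33, 13.3 or 133 TPM (RC77 T/E). It was 2.75-fold higher in MDA PCa 2b, but with a pseudocount of 1 TPM and the mark at its lowest position the log2 ratio went from -1.46 to -0.9997, just short of 2-fold. ACACA, the acetyl-CoA carboxylase that feeds it with malonyl-CoA, was at 59.7 TPM (MDA PCa 2b) versus 24.6 TPM (RC77 T/E), 2.43-fold higher in MDA PCa 2b. ACLY, which supplies cytosolic acetyl-CoA for both routes, was at 89.6 and 79.3 TPM, within the 2-fold limit. ACACB, the carboxylase at mitochondria, was near 1 TPM in both, at 1.01 and 1.26 TPM. None of these 4 genes was RC77 T/E-high, beside 23.3% of all genes compared, and 2 were MDA PCa 2b-high, beside 24.4%. With 4 genes these counts say little about the group.

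All 3 desaturases had the higher value in RC77 T/E cells, as had 5464 of all 12126 genes compared. Of the 3, 2 were higher there by 2-fold or more, beside 23.3% of all genes compared. FADS2, the delta-6 desaturase of polyunsaturated fatty acids, was at 6.36 or 63.6 TPM (MDA PCa 2b) versus 93.8 or 938 TPM (RC77 T/E). Its 14.8-fold ratio was exceeded or matched by 9.74% of all genes compared. FADS1, the delta-5 desaturase, was at 2.17, 21.7 or 217 TPM against 4.81, 48.1 or 481 TPM and 2.22-fold higher in RC77 T/E, which a pseudocount of 1 TPM at the lowest mark brought under 2-fold, at a log2 ratio of 0.87. Both lie on chromosome 11, FADS1 from 61799627 to 61829318 and FADS2 from 61792980 to 61867354. In GENCODE they are on opposite strands with 29694 shared bases, and FADS2 also overlaps FEN1, a flap endonuclease gene, on its own strand. The libraries kept strand, but whether the TPM values use it is not stated, so reads of these genes may be shared. FADS3, the next gene of this cluster and not one of the 42, was at 4.92 or 49.2 TPM (MDA PCa 2b) versus 99.0 or 990 TPM (RC77 T/E), 20.1-fold higher. SCD, which makes monounsaturated fatty acids, was at 42.8 or 428 TPM against 61.3 or 613 TPM, a 1.43-fold ratio within the limit.

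The 4 elongases split by member. ELOVL5, which extends polyunsaturated fatty acids, was at 33.8 or 338 TPM (MDA PCa 2b) versus 9.78 or 97.8 TPM (RC77 T/E), 3.45-fold higher in MDA PCa 2b. ELOVL7, an elongase of saturated very long chains, was 2.57-fold higher in MDA PCa 2b, at 22.0 or 220 TPM against 8.56 or 85.6 TPM. ELOVL6, which extends palmitate, was 1.77-fold higher in RC77 T/E, at 16.0 or 160 TPM against 28.3 or 283 TPM. ELOVL1, an elongase of very long chains, was at 136 TPM (MDA PCa 2b) versus 144 TPM (RC77 T/E), a 1.06-fold ratio. FADS2 and ELOVL5, which act in turn on the same polyunsaturated fatty acids, thus stood 14.8-fold higher in RC77 T/E and 3.45-fold higher in MDA PCa 2b.

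The 4 genes that activate and oxidise fatty acids included ACSL4 and AMACR, whose large ratios pointed in opposite directions. ACSL4, which prefers arachidonate and other polyunsaturated acids, was at 0.221 TPM (MDA PCa 2b) versus 31.8 TPM (RC77 T/E). ACSL1, an acyl-CoA synthetase of long saturated and monounsaturated acids, showed the opposite, at 52.8 TPM (MDA PCa 2b) versus 13.2 TPM (RC77 T/E). ACSL1 was 4.02-fold higher in MDA PCa 2b. The ratio of ACSL4 was 144-fold in favour of RC77 T/E, against a value under 1 TPM of unknown precision, and its log2 ratio went from 7.17 to 4.75 with a pseudocount of 1 TPM.
AMACR, the racemase that prepares branched fatty acids for peroxisomal oxidation and a tissue marker of prostate cancer, was at 117 TPM (MDA PCa 2b) versus 2.995 TPM (RC77 T/E). It was 39.1-fold higher in MDA PCa 2b, a ratio matched or passed in that direction by 3.50% of all genes compared. AMACR lies on chromosome 5 from 33986165 to 34008104 and shares 20935 bases with a read-through gene on the same strand. CPT1A, the gate of mitochondrial oxidation, was 1.94-fold higher in MDA PCa 2b and so just within the limit, at 26.7 or 267 TPM against 13.8 or 138 TPM.

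Other genes of these pathways were taken from lists of related enzymes and carriers. Their counts stand beside 23.3% RC77 T/E-high and 24.4% MDA PCa 2b-high among all genes compared. Of 19 genes of mitochondrial and peroxisomal fatty acid oxidation, 18 reached 1 TPM in either line, and of these 10 (55.6%) were MDA PCa 2b-high and 3 (16.7%) RC77 T/E-high, with a median log2 ratio of -1.16. Past 4-fold toward MDA PCa 2b were ACADS at 8.46-fold, EHHADH at 5.70-fold, SLC25A20 at 5.67-fold and ACAA1 at 4.14-fold. ACADS is the short-chain acyl-CoA dehydrogenase, SLC25A20 the carnitine carrier of the inner mitochondrial membrane, and EHHADH and ACAA1 are peroxisomal enzymes. Past 4-fold toward RC77 T/E were CPT1C, ACAA2 and DECR1. The thiolase ACAA2 was at 1.205 TPM (MDA PCa 2b) versus 18.2 TPM (RC77 T/E). DECR1, which handles double bonds of polyunsaturated acids, was 10.4-fold higher in RC77 T/E. CPT1C was at 0.0764 TPM (MDA PCa 2b) versus 10.2 TPM (RC77 T/E). A share of 25.2% of all genes compared was at least 4-fold apart in either direction, beside 7 of these 18.
Of 13 further genes of fatty acid synthesis, 11 reached that level, and of these 5 were RC77 T/E-high and 2 MDA PCa 2b-high. ME1, malic enzyme, a source of NADPH, was at 0.0335 TPM (MDA PCa 2b) versus 12.8 TPM (RC77 T/E). The elongase ELOVL2 was at 9.15 TPM (MDA PCa 2b) versus 0.0498 TPM (RC77 T/E), while ELOVL3 was at 0.0183 and 2.10 TPM. ELOVL4 was 5.04-fold higher in RC77 T/E. Elongases outside the 42 genes thus also lay on both sides. HSD17B12, the ketoreductase that serves all elongases, was at 77.9 and 79.6 TPM.
Of 7 genes in the list of fatty acid uptake and activation, 4 reached that level, and of these 1 was RC77 T/E-high and 2 were MDA PCa 2b-high. FABP5, a fatty acid binding protein, was at 4.90 TPM (MDA PCa 2b) versus 46.2 TPM (RC77 T/E). SLC27A2, an acyl-CoA synthetase and transporter, was at 12.1 TPM (MDA PCa 2b) versus 0.893 TPM (RC77 T/E). Of 13 further genes of sterol handling reported here, 10 reached that level, and of these 2 were RC77 T/E-high and 2 MDA PCa 2b-high, and NPC1, which exports cholesterol from lysosomes, was 5.85-fold higher in RC77 T/E. Of 5 further genes of sterol synthesis reported here, 1 was RC77 T/E-high, 1 was MDA PCa 2b-high and 3 were within 2-fold. In both of these sterol lists the shares were 20% and 20%, near those of all genes compared. MSMO1, the C4 methylsterol oxidase, was at 2.44 or 24.4 TPM (MDA PCa 2b) versus 25.01 or 250.1 TPM (RC77 T/E), 10.3-fold higher in RC77 T/E. FAXDC2 was 4.12-fold higher in MDA PCa 2b.

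Of the 42 genes, 10 overlap another protein-coding gene in GENCODE release 29: ACAT2, MVK, CYP51A1, TM7SF2, SREBF1, ACACA, FADS1, FADS2, ACSL4 and AMACR. For CYP51A1, TM7SF2, ACSL4 and AMACR, as for FADS2, the neighbour is on the same strand, where strand cannot separate reads. The part of shared reads in these values was not tested.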

How the data were processed

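The data were 1 paired-end, directional RNA-Seq library of untreated RC77 T/E cells and 1 of untreated MDA PCa 2b cells, grouped by the cell line label. The authors deposited TPM, normalised for gene length and library total, with their mean and standard error over both lines. The submitters' processing notes name CASAVA, FastQC 0.11.9, Trimmomatic 0.38, Salmon 1.2.0 and GRCh38, without roles, and row identifiers have the form that Cufflinks writes. Read depth is unknown, so no counting interval is given.

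The decimal mark was missing from deposited values of 1 TPM and above that had 3 or more decimals, where the design had assumed plain TPM. Every position with 1 to 3 digits before the mark was tried and kept if the deposited mean and standard error came out. Of 22704 loci, 16212 had 1 position, 683 were set by the rows of a supplementary table of the study used here, and 5809 kept more than 1 position, with 1 ratio between the lines for 5808. On 5000 simulated rows, all 3380 with 1 position were right and all 5000 included the true one. These rows were written by the rule being undone, so they cannot show whether the deposited values follow it. Of 1315 deposited rows with 1 position that also stood in the supplementary table, 1315 had the same values there. Of the 42 genes, 9 were fixed by the deposited mean and standard error and 5 by the supplementary rows.

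Loci of a symbol were summed. The ratio was RC77 T/E TPM over MDA PCa 2b TPM, without pseudocount, among genes at 1 TPM or more in at least 1 line. A gene under 1e-06 TPM was taken as listed at 0. With 1 library per line no test was made, and genes were counted past 2-fold. Named are the 42 genes, genes of the further lists at least 4-fold apart, or with a step that none of the 42 covers. The 42 genes and all lists were chosen with earlier results of these data known. From the lists of further genes, 3 are not reported here and are not counted. Positions are those of the deposited table. In GENCODE release 29 (GRCh38), 41 of the 42 genes start within 10 kb of them. Promoters are RefSeq windows on GRCh38.p14, whose bases after the start were found in a GENCODE transcript of the gene for 35 of 36. Alternatives concerned the level, fold, filter, pseudocount, scaling, loci and open marks. Python 3.11.15, numpy 2.4.6 and matplotlib 3.10.9 were used.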

Additional observations from a re-analysis of the deposited data

How the results depend on the processing

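With a limit of 4-fold in place of 2-fold, 6 of the 42 genes were RC77 T/E-high and 3 MDA PCa 2b-high, with 4 and 1 of the sterol genes, 0 and 0 of the SREBP regulators, 2 and 2 of the fatty acid genes, and 1808 and 1245 of all genes. With a limit of 1.5-fold, 2 regulators were higher in MDA PCa 2b, as were 4417 of all 12126 genes compared. No gene called 2-fold apart changed direction under any alternative tried. A pseudocount of 1 TPM, with open marks at their lowest position, changed the 2-fold call of MVD, SCARB1, FASN and FADS1. Centring on the overall median changed those of CYP51A1, EBP and SCARB1, and the higher calls of RC77 T/E among all genes went from 48.9% to 54.8% of calls. Scaling to the upper quartile with open marks at their highest position, chosen after seeing the data, also changed those of LSS and ELOVL6 and gave 57.2%. It turned the sign of the small ACLY ratio and moved the fatty acid median from -0.18 to 0.05. The median of all genes compared moved likewise, from -0.16 to 0.06. The sterol median lay between 0.94 and 1.27. The cause was not tested. No paired analysis was possible because there was only 1 library of a line. Depth is unknown, so values under 1 TPM carry no error.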
